A study of Mus musculus with 4 samples.

Results

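The respiratory chain genes of mouse were compared between salivary gland placodes grown from embryonic stem cells (SG placodes) and embryonic submandibular glands (SMGs). The members were chosen by name: the protein-coding genes of the mitochondrial genome, every gene whose symbol begins with Nduf, Uqcr, Atp5 or Cox followed by a digit, the genes Sdha, Sdhb, Sdhc and Sdhd of complex II, and Cycs, which encodes cytochrome c. These were 117 of the 24771 features listed, 13 from the mitochondrial genome (mt-encoded) and 104 nuclear. The names brought in more than the subunits of the finished enzymes: 17 of the nuclear members were factors that help to build complex I or complex IV, and 1, Atp5s, encodes a factor associated with complex V. The nuclear subunits numbered 86, cytochrome c and tissue paralogs included, and 1 of these, Atp5o, was listed as 2 features with the same symbol, the second at 0 in every sample.

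The SG placodes came from the 129w2 mouse embryonic stem cell line at day 10. Aggregates were seeded at 3000 cells per well, kept from day 1 in 2% Matrigel, and given 2 ng/ml BMP4 on day 3, 25 ng/ml bFGF with 1 µM retinoic acid (RA) on day 4, and 200 ng/ml FGF10 from day 6. The SMGs were glands of mouse embryos at E12.5, with no agent of their own stated. The labels repeat the culture text for both groups, and the strain of the embryos and the number of glands behind each sample are not given in the sources used here. Each group had 2 samples of total RNA. Nothing says that they came from separate cultures or litters, so every standard error measures only the spread between these samples.

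Oxidative phosphorylation runs on 5 enzyme complexes in the inner mitochondrial membrane. Complexes I to IV pass electrons from NADH and succinate to oxygen, with cytochrome c as the carrier between complexes III and IV, and complex V uses the resulting proton gradient to make ATP. All but complex II are mosaics: their membrane-embedded core is partly encoded by mitochondrial DNA and the rest by nuclear genes. Mitochondrial mRNAs are cut from long transcripts of either strand that start in the control region. The transcript that carries all of them but mt-Nd6 passes through the ribosomal RNA genes and then mt-Nd1, and mt-Nd6 is cut from the transcript of the other strand. In contrast each nuclear gene has its own promoter, so the 2 sets of mRNAs are made by separate machineries.

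The samples were mixed tissue. Summed over 8 neuronal markers, FPKM (fragments scaled to gene length and to the mapped total of the sample) was 996 and 1035 in the placodes against 93.7 and 84.0 in the SMGs, and all 8 were called higher. Mesenchyme, erythroid, endothelial, macrophage and striated muscle markers ran the other way: mesenchymal markers summed to 204 and 199 against 2050 and 2004, all 8 lower, and erythroid markers to 0.0258 and 0.255 against 3067 and 3062. Of 10 markers of salivary epithelium, 2 were called higher and 6 lower, while Krt8 and Krt18 were not called. Sox9 was higher at 42.1 and 43.0 FPKM in the placodes against 9.31 and 7.66, and Krt19 at 14.7 and 15.8 against 9.78 and 6.53. Among those called lower, Krt5, Krt14 and Krt15 were listed at 0 in both placode samples. In such bulk samples, fewer cells of a type and less RNA per cell cannot be told apart, and the part of this mixture in the levels below was not tested.

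Mitochondrial genes overlap, and the overlaps limit how finely the levels can be read. The end of mt-Atp8 and the start of mt-Atp6, both membrane subunits of complex V, share 43 bases. Their sequences are shown because a read inside the capitals belongs to both genes, whose levels moved together below. They were read from the GENCODE transcripts of GRCm38, with shared bases in capitals, at chrM:7910-7969 and chrM:7927-7986 on the plus strand.
mt-Atp8: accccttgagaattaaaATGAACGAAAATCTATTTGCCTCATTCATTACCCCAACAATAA
mt-Atp6: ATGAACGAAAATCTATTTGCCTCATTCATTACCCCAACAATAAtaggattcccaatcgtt
The complex I genes mt-Nd4l and mt-Nd4 overlap by 7 bases, again in capitals, at chrM:10144-10173 and chrM:10167-10196 on the plus strand.
mt-Nd4l: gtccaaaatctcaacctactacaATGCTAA
mt-Nd4: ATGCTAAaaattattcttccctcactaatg
mt-Nd6, the only member on the minus strand, shares 14 bases with mt-Nd5. The named library kit does not say that strand was kept, so reads from the light and heavy strands over mt-Nd6 could not be told apart.

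The mt-encoded mRNAs were lower in the SG placodes. In every sample all of them but mt-Nd3 stood above every nuclear member, the highest of which reached 437 FPKM. Summed over the 13 genes, FPKM was 21632 and 21273 in the placodes and 41148 and 30165 in the SMGs. As a share of all FPKM in the sample this was 5.93% and 5.88% against 10.7% and 8.07%, or 5.90% ± 0.0342 against 9.38% ± 1.86 (SD, n = 2 each). The samples of the groups did not overlap, but the SMGs differed from each other far more than the placodes did. The nuclear subunits went the other way, at 1.83% and 1.76% of all FPKM in the placodes and 1.50% and 1.61% in the SMGs. An exact permutation test over 2 against 2 samples cannot go below 0.333, so no p is given for these sums.

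Single genes were compared as the difference of mean log2(FPKM + 1), SG placodes minus SMGs, over the 13193 features with a mean of at least 1 FPKM. A gene was called at a Benjamini-Hochberg adjusted p below 0.05 in limma over all of these. Calls were common, at 76.2% of all features tested, 35.7% higher and 40.4% lower. Since the contrast itself was part of how the members were chosen, their calls are given as a description. Of the 117 members 111 passed the minimum, and 73 were called, 46 higher and 27 lower, with a median difference of 0.08 against −0.05 over all features. The mt-encoded genes were called lower in 12 of 13 cases, with a median of −0.89, and all 13 had both placode samples below both SMG samples, as had 46.8% of all features tested. Of 80 nuclear subunits tested, 42 were called higher and 10 lower, with a median of 0.19. The 17 assembly factors had 4 higher and 5 lower, with a median of −0.06. Whichever sample was left out, fewer members were called. Without placode sample 1, placode sample 2 or SMG sample 1 the calls fell by a larger part than those over all features. This held among all members, the mt-encoded genes, the nuclear subunits and the assembly factors.

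**Figure D1:**
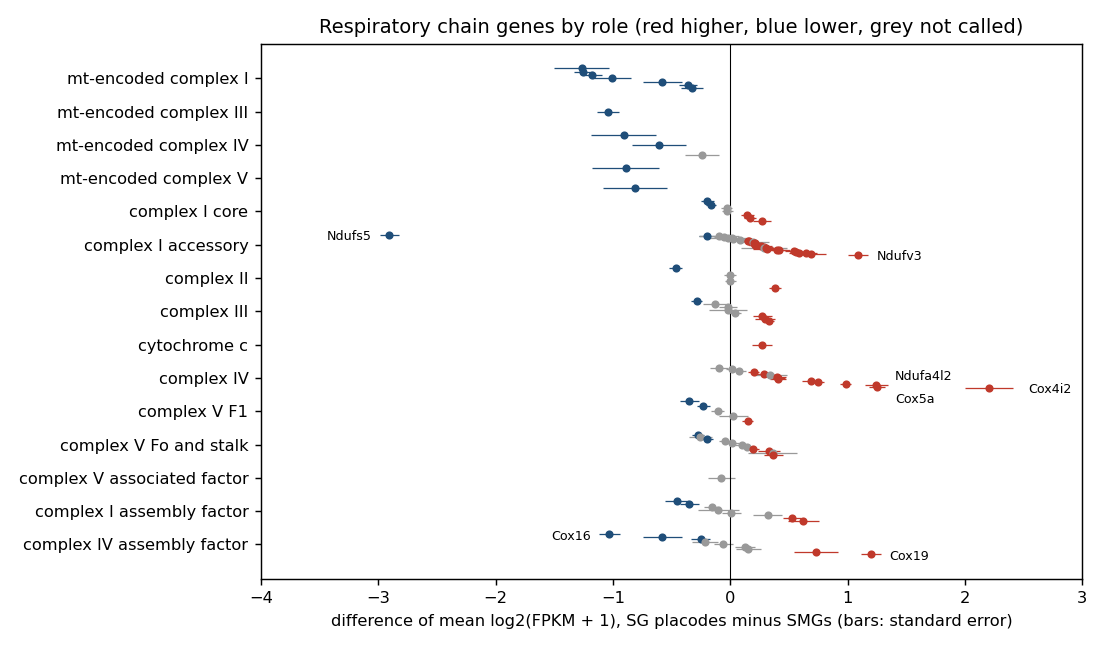
Difference of mean log2(FPKM + 1), SG placodes minus SMGs, for the 111 members tested, 1 point per gene with its standard error, in rows by role; red was called higher, blue lower and grey not called. The 13 mt-encoded genes all lie left of 0, complex IV lies almost wholly to the right, and Ndufs5 stands alone at −2.91.

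The 7 mt-encoded complex I subunits were all called lower, by unequal amounts. mt-Nd1 (chrM:2751-3707), the first protein gene after the ribosomal RNAs, was at 1948 and 2075 FPKM in the placodes and 2575 and 2474 in the SMGs, a log2 difference of −0.33 (SE 0.10). mt-Nd2, at 1057 and 1135 against 1418 and 1397, was close to it at −0.36. At the far end of the genome mt-Nd5 (chrM:11742-13565) had 892 and 946 against 2160 and 2016, a log2 difference of −1.18 (SE 0.09). mt-Nd6, its neighbour on the other strand, had 727 and 768 against 1828 and 1734, which is −1.25. For these 4 genes the samples within a group lay close together, so the gap of mt-Nd5 and mt-Nd6 was wide against the spread of either group.

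Between them lay genes on which the SMG samples disagreed. mt-Nd3 was at 188 and 172 FPKM against 324 and 222 (log2 difference −0.58), the lowest level of the 13. mt-Nd4l was at 787 and 697 against 2328 and 1370, a log2 difference of −1.27. mt-Nd4 was at 1132 and 1095 against 2684 and 1881, a log2 difference of −1.01. In all 3 the placode samples were below both SMG samples, and SMG sample 1 was well above SMG sample 2.

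mt-Cytb, the only mt-encoded subunit of complex III, had the closest pair of SMG samples of the 13. It had 1467 and 1555 FPKM in the placodes and 3118 and 3100 in the SMGs, a log2 difference of −1.04 (SE 0.09). Among the catalytic subunits of complex IV, mt-Co1 was the most abundant member of all, at 5539 and 5702 against 7080 and 6229. Its log2 difference of −0.24 (SE 0.15) was the smallest of the 13 and was not called, although both placode samples were the lower. mt-Co2 was at 1991 and 1951 against 3870 and 2337 (−0.61, SE 0.23), and mt-Co3 at 1682 and 1434 against 3984 and 2141 (−0.91, SE 0.28). The call of mt-Co2 was marginal, at an adjusted p of 0.0499 in limma. The complex V subunits followed mt-Co3: mt-Atp6 had 2226 and 1965 against 4976 and 2716 (log2 difference −0.81), and mt-Atp8 had 1996 and 1776 against 4803 and 2548 (log2 difference −0.89). Quantile normalization, which forces all samples to 1 distribution, turned mt-Nd1 to 0.47 and mt-Co2 to 0.25 and took the median of the 13 to −0.10, so that the directions of mt-Nd1 and mt-Co2 depended on the scaling.

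**Figure D2:**
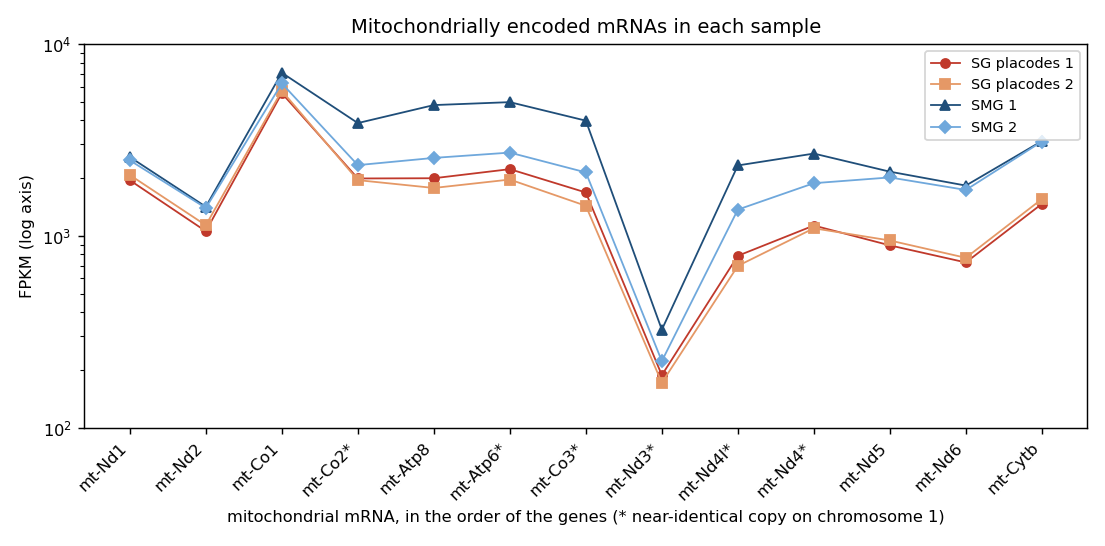
FPKM (log axis) of the 13 mt-encoded mRNAs in each of the 4 samples, in the order of the genes along the mitochondrial genome. An asterisk marks genes with an annotated near-identical copy on chromosome 1, which leaves mt-Atp8 unmarked. SMG 1 rises above SMG 2 from mt-Co2 to mt-Nd4, while the pairs of replicates lie close together at either end.

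The disagreement of the SMGs covered 1 unbroken stretch of the genome. From mt-Co2 through mt-Atp8, mt-Atp6, mt-Co3, mt-Nd3 and mt-Nd4l to mt-Nd4, SMG sample 1 was 1.43 to 1.88 times SMG sample 2. In the other 6 genes the ratio was 1.01 to 1.14, and in the placodes it was 0.931 to 1.17 over all 13. Nuclear DNA holds a copy of this stretch: GENCODE M21 lists pseudogenes of mt-Co2, mt-Atp6, mt-Co3, mt-Nd3, mt-Nd4l and mt-Nd4, though not of mt-Atp8, between 24611535 and 24615565 on chromosome 1 of GRCm38. A search of the transcripts found each of them at least 99.7% identical to its mitochondrial gene. The match covered 63.6% of the mt-Nd4 transcript and 99.0% to 99.9% of the others. These pseudogenes were not among the features listed, so they had no levels to compare. How reads were divided between the copies is not given in the sources used here. Other copies at the same minimum of identity lay elsewhere: on chromosome 2 for mt-Co1 (97.6% identical) and mt-Co2 (95.9%), and on chromosome 13 for mt-Nd5 (95.2% over 52.3% of the transcript). The summed striated muscle markers also differed between the SMGs, at 193 FPKM in sample 1 and 128 in sample 2. The part of the copies and of the muscle markers in the gap between the SMGs was not tested. Only annotated transcripts were searched, and mt-Atp8 lies between the copied mt-Co2 and mt-Atp6. A copy of mt-Atp8 on chromosome 1 may therefore have been missed, and its ratio of 1.88 between the SMGs was the widest. The 7 genes without an annotated copy on chromosome 1, mt-Atp8 included, held 3.73% and 3.86% of all FPKM in the placodes. In the SMGs they held 5.97% and 5.21%. Without SMG sample 1, the log2 differences of the 7 genes of the stretch shrank to between −0.25 for mt-Co2 and −0.89 for mt-Nd4l, while mt-Nd5 stayed at −1.13, mt-Nd6 at −1.21 and mt-Cytb at −1.04. The median of the 13 was then −0.44, and without SMG sample 2 it was −1.23. With either placode sample left out, most of the 13 were no longer called, a larger part lost than over all features.

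Taking mt-Nd1 of the same sample as the unit removed any scaling of the library and left a difference in the profile along the genome. mt-Nd2 was 0.542 and 0.547 times mt-Nd1 in the placodes and 0.551 and 0.565 times in the SMGs. mt-Co1 was 2.84 and 2.75 times mt-Nd1 against 2.75 and 2.52 times. These 2 near neighbours differed little between the groups. mt-Nd5 was 0.458 and 0.456 times mt-Nd1 in the placodes and 0.839 and 0.815 times in the SMGs. mt-Nd6 was 0.373 and 0.370 times against 0.710 and 0.701 times. mt-Cytb was 0.753 and 0.749 times against 1.21 and 1.25 times. These genes of the far end have no annotated copy on chromosome 1. Their replicates almost coincided, and the groups were apart by −0.86, −0.93 and −0.71 on the log2 scale of the ratio. These ratios were looked at after the levels were seen, and RNA quality values were not analysed here.

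**Figure D3:**
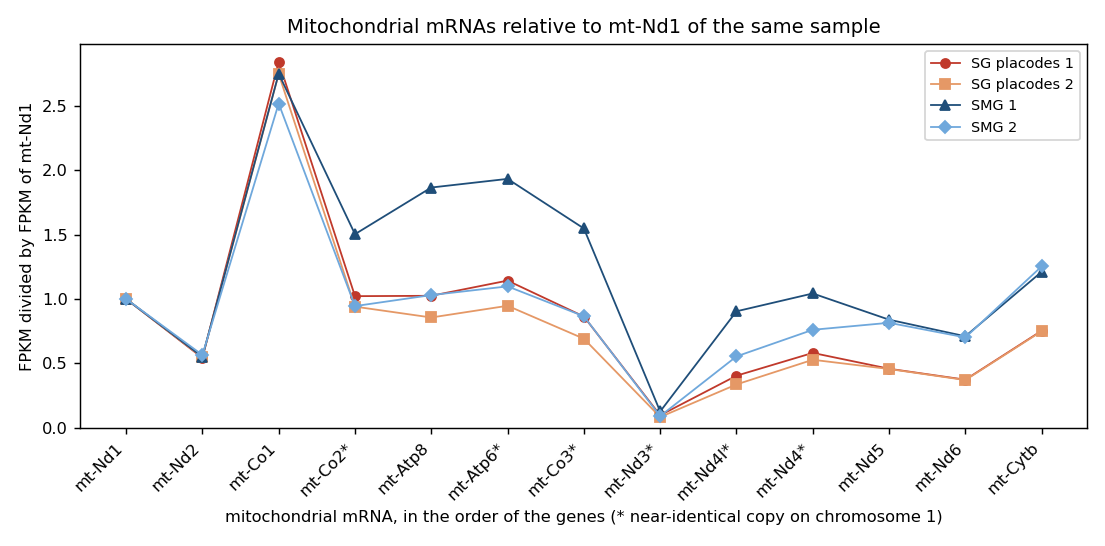
FPKM of each mt-encoded mRNA divided by FPKM of mt-Nd1 in the same sample, in genome order. An asterisk marks genes with an annotated near-identical copy on chromosome 1, which leaves mt-Atp8 unmarked. All samples meet at mt-Nd2, SMG 1 stands alone from mt-Co2 to mt-Co3, and both SMGs lie above both placodes from mt-Nd4l to mt-Cytb.

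Set against the nuclear subunits of the same library, mt-encoded mRNA was lower in the placodes for each complex built from both genomes. The ratio of summed FPKM over all subunits was 3.25 and 3.34 in the placodes and 7.11 and 5.01 in the SMGs, or 3.29 ± 0.0686 against 6.06 ± 1.49 (SD, n = 2 each). In complex I it was 3.75 and 4.08 against 8.88 and 7.01. Complex III, with the close SMG pair of mt-Cytb, had 2.64 and 2.84 against 6.01 and 5.36. Complex IV had 5.15 and 5.38 against 11.9 and 8.38. Complex V had 1.85 and 1.70 against 4.31 and 2.25, the narrowest gap between the groups. With the 6 genes that have an annotated copy on chromosome 1 left out, and mt-Atp8 kept in, the ratio was 2.04 and 2.19 against 3.97 and 3.24. In every one of these ratios the samples of the groups did not overlap, as was so for 88.4% of all features tested.

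**Figure D4:**
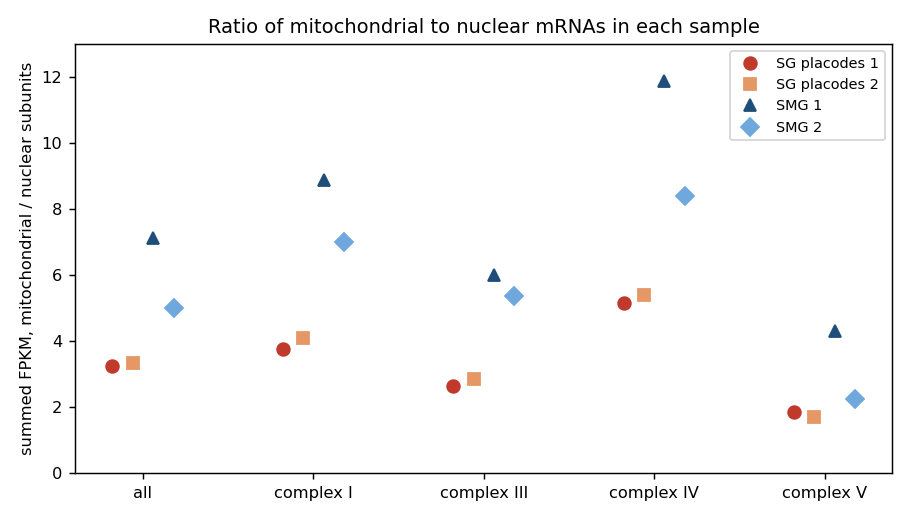
Summed FPKM of mt-encoded subunits divided by summed FPKM of nuclear subunits in each sample, over all subunits and within complexes I, III, IV and V; each point is 1 sample. Both placode samples lie below both SMG samples in every column, and SMG 2 comes nearest to the placodes in complex V.

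Complex IV was the complex whose nuclear subunits stood highest in the placodes. Its nuclear subunits summed to 1787 and 1688 FPKM in the placodes and 1256 and 1277 in the SMGs, 1.37 times as much. Of 15 tested, 11 were called higher and none lower. The called share was 73.3%, against 76.2% of all features tested, where 35.7% were called higher. In 13 both placode samples were above both SMG samples, as in 41.6% of all features tested. Cox5a, a subunit on the matrix side (chr9:57521274-57532426), was at 178 and 161 against 73.3 and 68.0, a log2 difference of 1.25 (SE 0.07). It shares 269 exon bases with Gm26631 on the opposite strand, so those reads could not be told apart. Cox7a2l, known for its part in joining complexes III and IV into supercomplexes, was at 187 and 192 FPKM against 95.4 and 95.4 (log2 difference 0.98, SE 0.05). Cox6a1 was at 239 and 229 against 139 and 138 (log2 difference 0.75). In contrast Cox4i1, the main isoform of subunit IV, was nearly level at 289 and 270 against 269 and 262 (log2 difference 0.07), and Cox7b had the lowest difference of the complex at −0.10.

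Several complex IV subunits have paralogs that are used in particular tissues, and of these Cox4i2, Cox6b2 and Ndufa4l2 were called higher in the placodes. Cox4i2, the form of subunit IV known from lung and from cells short of oxygen (chr2:152754173-152765037), was at 9.57 and 7.87 FPKM against 1.58 and 0.713, the largest difference among the members on the high side (log2 difference 2.20, SE 0.21). It made up 3.20% and 2.84% of Cox4i1 and Cox4i2 together in the placodes and 0.582% and 0.272% in the SMGs. Ndufa4l2, the hypoxia-responsive relative of Ndufa4, was at 9.63 and 8.82 against 3.53 and 3.11 (log2 difference 1.24). Its share of the pair was 6.76% and 6.22% against 3.02% and 2.57%. Cox6b2, a form known from testis, held 13.6% and 13.7% of Cox6b1 and Cox6b2 together against 10.7% and 9.78%. Of Cox7a1, Cox7a2 and Cox7a2l, Cox7a2l made up 70.7% and 71.8% against 56.4% and 55.6%, while Cox7a2 itself was level (log2 difference 0.01).

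The forms typical of heart and skeletal muscle were at or near 0 in every sample. Cox8b was listed at 0 throughout and Cox6a2 at 0 in all but SMG sample 2, at 0.150 FPKM. Cox7a1 was at 1.63 and 1.07 FPKM in the placodes and 0.333 and 0.428 in the SMGs, the opposite direction to the muscle markers. Those markers summed to 11.7 and 12.0 FPKM in the placodes and 193 and 128 in the SMGs, with 8 of 9 tested called lower and Myh8 and Myog listed at 0 in both placode samples. Cox7b2 and Cox8c, known from testis, were listed at 0 in all 4 samples. With the second Atp5o feature these are the 6 members that did not reach the minimum.

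**Figure D5:**
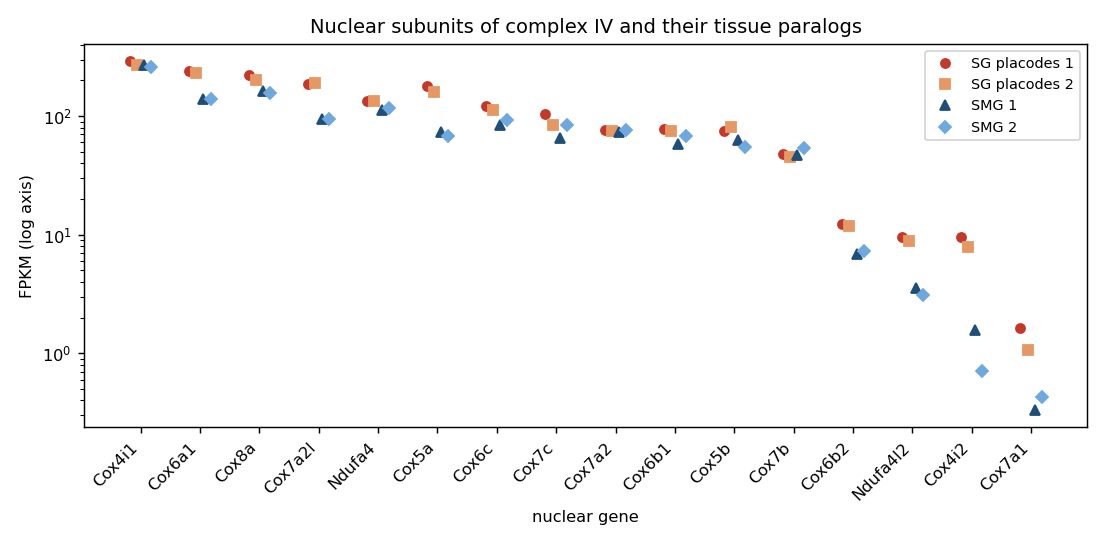
FPKM (log axis) in each of the 4 samples of the 16 nuclear complex IV genes with a level above 0.2 FPKM in any sample, ordered by mean level. The placode points lie above the SMG points for most genes, with the widest gap at Cox4i2, and coincide with them at Cox4i1 and Cox7a2.

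Complex I held the largest single difference. Its 29 accessory subunits, which surround the catalytic core, included 19 called higher and 2 lower, with a median difference of 0.21. The called share was 72.4%, against 76.2% of all features tested, where 35.7% were called higher and 40.4% lower. Ndufs5, an accessory subunit facing the intermembrane space (chr4:123712710-123718202), was at 4.81 and 5.46 FPKM in the placodes and 43.2 and 46.7 in the SMGs, a log2 difference of −2.91 (SE 0.08). No other nuclear member came near it on the low side. A processed pseudogene on chromosome 16, BC002163, matches 60.8% of the Ndufs5 transcript at 99.4% identity and was not among the features listed. The reads of Ndufs5 could be split between the copies, and its level is uncertain to that extent. Ndufv3 had the largest difference upward among the accessory subunits, at 49.4 and 44.8 FPKM against 20.1 and 23.1 (log2 difference 1.09). The 7 nuclear subunits of the catalytic core hardly moved as a group, with 3 called higher, 2 lower (71.4% called) and a median of −0.03. They ran from Ndufv1, which binds NADH, at −0.20, to Ndufv2 at 0.27.

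Complex II, which is wholly nuclear, was split. Sdha, the flavoprotein that oxidises succinate, was at 52.5 and 49.3 FPKM in the placodes and 72.2 and 68.9 in the SMGs (log2 difference −0.46). Sdhb, the iron-sulfur subunit bound to it, was at 82.4 and 79.8 against 60.5 and 63.7 (log2 difference 0.38). The membrane anchors Sdhc and Sdhd overlapped between the groups, each with a log2 difference of 0.00 to 2 decimals. Complex III had 3 subunits called higher, 1 lower and 4 not called. Uqcrc1, a core protein, was at 90.2 and 92.7 against 114 and 110 (log2 difference −0.29), and Uqcrfs1, the Rieske iron-sulfur protein, at 89.4 and 88.8 against 68.8 and 73.0 (log2 difference 0.33). Cycs was at 30.5 and 26.3 FPKM against 22.2 and 24.4 (log2 difference 0.27).

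The nuclear subunits of complex V changed little. In the catalytic F1 part 1 subunit was called higher and 2 lower of 5, or 60.0% against 76.2% of all features tested. Atp5e had the lowest difference there at −0.35, Atp5a1, the alpha subunit, was at −0.23, and Atp5c1, the central shaft, was the highest at 0.15. In the membrane part and stalk 3 were called higher and 2 lower of 11 tested (45.5%), from Atp5j at −0.27 to Atp5l at 0.36. The genes Atp5g1, Atp5g2 and Atp5g3 all encode the c subunit of the membrane ring. Atp5g3 made up 57.2% and 58.1% of the 3 together in the placodes and 60.3% and 60.0% in the SMGs. Atp5g2 was level at 0.01, and Atp5g1 was at −0.26 without being called.

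Among assembly factors the complex IV group spread widest. Cox19, a small protein of copper delivery, was at 22.3 and 22.5 FPKM against 8.42 and 9.99 (log2 difference 1.20). Cox16, which acts on the mt-Co2 product, was at 12.9 and 14.5 against 27.2 and 31.0 (log2 difference −1.03). Its transcripts share 2130 exon bases with Gm20498 on the same strand, so its level is uncertain. Of the 9 factors of complex IV 2 were called higher and 3 lower, or 55.6% against 76.2% of all features tested. Of the 8 factors of complex I 2 were called each way, from Ndufaf1 at −0.46 to Ndufaf4 at 0.62.

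Among the nuclear members, short transcripts differed between the SMG samples in 1 direction. All 12 with a transcript of up to 500 bases were lower in SMG sample 1 than in SMG sample 2, with a median ratio of 0.841. For the 42 with a transcript over 1000 bases the median ratio was 0.982, and 25 were lower. The placode samples also leaned to 1 side, with 1 of the 12 short ones lower in sample 1 and a median ratio of 1.07. Over 1000 bases 11 of the 42 were lower in placode sample 1, with a median ratio of 1.04. Atp5k, a small membrane subunit of complex V, had the lowest ratio between the SMGs among the short ones, at 0.597, and was not called. It was named here after its values were seen.

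Of the nuclear subunits, 51 of those tested share no exon bases with another gene. Of these 34 were called, 28 higher and 6 lower, with a median of 0.27. That was 66.7% called, against 76.2% of all features tested. The direction of the nuclear set was thus the same in the genes without such overlaps.

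Promoters of respiratory chain genes are known for sites of NRF1 and of the ETS factor GABP. In the 250 bases before the RefSeq start, on GRCm38.p6, the NRF1 letters (GCGC, any base, then TGCGC, on either strand) were found for 13 of 68 nuclear subunits with an entry, or 19.1%, against 4.23% of all 27025 genes and 9.31% of the 9928 expressed at a mean of at least 1 FPKM. The ETS letters CCGGAAGT, on either strand, were found for 4.41% of the subunits against 3.23% and 6.68%. The windows of a gene higher, a gene lower and the gene with the largest difference are printed as examples. All of them come from the 13 subunits with NRF1 letters, and none holds the ETS letters. Matches are in capitals. They lie at chr5:115348959-115349208, chr13:74350241-74350490 and chr4:123718187-123718436, all on the minus strand.
Cox6a1: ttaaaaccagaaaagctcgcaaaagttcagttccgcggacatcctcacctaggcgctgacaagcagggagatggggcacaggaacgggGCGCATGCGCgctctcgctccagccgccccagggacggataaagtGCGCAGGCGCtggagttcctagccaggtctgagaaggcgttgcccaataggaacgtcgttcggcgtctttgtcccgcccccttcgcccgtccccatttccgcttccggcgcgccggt
Sdha: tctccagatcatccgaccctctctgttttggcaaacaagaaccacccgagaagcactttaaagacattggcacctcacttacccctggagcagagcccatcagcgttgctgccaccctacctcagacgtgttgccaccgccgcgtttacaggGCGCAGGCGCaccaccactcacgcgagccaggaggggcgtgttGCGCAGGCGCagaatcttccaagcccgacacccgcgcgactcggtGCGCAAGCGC
Ndufs5: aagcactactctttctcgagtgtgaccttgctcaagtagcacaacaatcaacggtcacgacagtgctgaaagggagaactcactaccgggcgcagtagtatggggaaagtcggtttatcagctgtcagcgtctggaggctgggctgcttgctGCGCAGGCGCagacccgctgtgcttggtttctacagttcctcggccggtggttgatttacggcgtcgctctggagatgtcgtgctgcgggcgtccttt
The window of Cox6a1, higher in the placodes, held 2 NRF1 matches, that of Sdha, lower, held 3, and that of Ndufs5 held 1. A match of letters is a description and not a bound site.

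Other mitochondrial genes gave no common direction. Of 31 regulators of mitochondrial biogenesis and mitochondrial gene expression tested, 6 were called higher and 11 lower, with a median of −0.02. This was 54.8% called, below the 76.2% of all features tested. Ppargc1a, the coactivator known for driving mitochondrial biogenesis, had the highest difference, at 2.18 and 2.54 FPKM against 0.473 and 0.576 (log2 difference 1.14), and Mgme1, a nuclease of mitochondrial DNA maintenance, had the lowest at −1.08. The following were named for their role with their values already seen. Polrmt, the mitochondrial RNA polymerase, was at 6.88 and 7.49 FPKM against 12.4 and 12.0 (log2 difference −0.69, called lower). Its partner Tfb2m was at 7.01 and 7.49 against 9.53 and 10.1 (log2 difference −0.39, called lower). Tfam, which packages mitochondrial DNA and starts its transcription, overlapped between the groups at 14.7 and 14.6 against 14.2 and 15.3.

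Of 78 mitochondrial ribosomal proteins 17 were called higher and 25 lower, with a median of −0.04, from Mrps12 at −0.86 to Mrps10 at 0.80. The called share was 53.8%, against 76.2% of all features tested. Of 17 citrate cycle genes 5 were called higher and 7 lower (70.6% called), with a median of −0.09. Idh2, the NADP-dependent isocitrate dehydrogenase, had the lowest difference, at 83.0 and 83.9 FPKM against 196 and 180 (log2 difference −1.16). Of 33 further assembly factors 9 were called higher and 6 lower (45.5% called), with a median of −0.02, from Cmc2 at −0.68 to Pet100 at 1.33.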

How the data were processed

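Total RNA from 2 SG placode and 2 SMG samples was made into libraries with a NEBNext Ultra kit and sequenced as paired ends. Per the study's methods the authors mapped reads with HISAT2 to the mouse genome and deposited FPKM per gene. The submitters' processing notes name GRCm38 and GRCh38, the latter without a stated use. The program behind the FPKM, its annotation and its use of strand are not given in the sources used here. Whole-read steps were looked for only among 1235 features below 0.2 FPKM in both placode samples. The most common ratio between these samples (a width of 0.02 on the log2 scale) held 1.62% of them. This check cannot show that steps are absent. Depth is unknown and no counting error is given. Members, gene lists and tests were chosen with earlier results of these data known. Log2(FPKM + 1) was fitted for all 4 samples with limma 3.58.1 in R 4.3.3 (eBayes with trend), for 13193 features with a mean of at least 1 FPKM, and p-values were adjusted by Benjamini-Hochberg at 0.05. On simulated data 198 of 200 genes changed 2-fold were recovered, with 12 false calls of 12993. The simulation drew independent normal noise scaled to the median replicate spread and changed few genes, whereas 76.2% of features were called here. It checks that the fit runs as intended and cannot show how sure the calls are. Coordinates and transcripts were those of GENCODE M21, and all 117 members matched it. Copies were searched with blastn 2.17.0 at 95% identity over at least 50% of a transcript. Named were all mt-encoded members, complex II, Cycs, the extremes of each role and list, tissue paralogs, and called members with an absolute log2 difference of at least 1. Of the genes named by this rule, 1 is not reported here. Alternatives were other pseudocounts, minimums, scalings, a replicate block and leaving out each sample.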

Additional observations from a re-analysis of the deposited data

How the results depend on the processing

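With 2 samples a group, leaving out each sample in turn moved the counts most. Calls then ranged from 30 to 69 for all members against 73, from 3 to 11 for the mt-encoded members against 12, from 23 to 48 for the nuclear subunits against 52, and from 4 to 10 for the assembly factors against 9, where the lone sample left was assumed to vary like the others. The median of the mt-encoded members ranged from −1.23 to −0.44, their difference in share of FPKM from −4.79 to −2.17 percentage points, and the log2 of the placode to SMG ratio of mt-encoded to nuclear mRNA from −1.11 to −0.60 against −0.88. Quantile normalization left 6 mt-encoded members called, 1 higher and 5 lower, with a median of −0.10, and having no minimum of FPKM left 6. Rescaling to TPM took the median of the nuclear subunits to 0.25. The cause of these shifts was not tested. Nothing shows that equal replicate numbers pair the samples (correlation of deviations −0.03), and with a replicate block 73 members, 12 mt-encoded members, 51 nuclear subunits and 10 assembly factors were called. Leaving out the 2735 loci without an Ensembl identifier, an alternative chosen after seeing the data, is among the alternatives. Of 704 values of named genes under the alternatives 604 kept their direction and side of the threshold, 79 were no longer called, 5 were newly called and 16 changed sign. Quantile normalization turned mt-Nd1 to 0.47 and mt-Co2 to 0.25. The other sign changes were of genes near 0: Atp5g2 to −0.020 with quantile normalization and between −0.037 and 0.063 without a sample, Cox7a2 to −0.058 and between −0.011 and 0.034, Sdhd to −0.083 and between −0.025 and 0.025, and Sdhc to 0.056 with TPM, 0.055 with median-ratio scaling, 0.0037 without mitochondrial features in the sum and between −0.032 and 0.026 without a sample. No scaling moved the median of all features by over 0.1.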
